A study of Mus musculus with 2 samples.

Results

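Islet endothelial cells were examined in droplet single-cell RNA data from hand-picked pancreatic islets of diet-induced obese (DIO) mice. One library came from mice given 10 mg/kg CDS and one from mice given saline, each for 2 weeks before islet isolation with collagenase V through the pancreatic duct. The labels do not say what CDS stands for, how many animals were pooled, or the age, sex or strain of the mice; the title of the series refers to an alpha2A-adrenergic receptor blocker that acts in the periphery. The labelled cell type of both libraries is the islet b cell, so the endothelial cells were recovered as a minority of an islet preparation. Members were chosen by their measured UMI counts. A barcode was a member when it held at least 500 genes, at least 1000 unique molecular identifiers (UMIs, one per captured RNA molecule) and at most 20% mitochondrially encoded UMIs, together with 4 further conditions. It had at least 5 UMIs summed over Pecam1, Cdh5, Plvap, Kdr and Flt1, Ins1 and Ins2 below 20% of its UMIs, Gcg below 2%, and at most 1 UMI of Cd79a, Cd3e and C1qa. These conditions gave 253 members of 6415 kept barcodes in the CDS library and 371 of 11591 in the saline library, 624 of 18006 in all. Glycam1 or Madcam1, addressins that mark venules through which lymphocytes enter tissue, were detected in 2 CDS and 11 saline members. These 13 cells are described apart, and "members" below means the other 251 CDS and 360 saline cells.

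Each condition is 1 library, so no test between CDS and saline was possible and no value below carries a replicate error. Intervals are 95% and cover counting error only. The CDS library was the deeper one, with a median of 19838 UMIs per kept barcode against 10070 in the saline library, and the members differed in the same direction, with medians of 7985 UMIs and 3181 genes in CDS against 5259 UMIs and 2554 genes in saline. The libraries shared 25 barcodes, none of them members. Some members carried RNA of a second cell type. In the CDS library 28 members held at least 10 UMIs of 8 pericyte genes, 6 had at least 1% of UMIs from Ppy, Pyy and Sst, and none held 10 plasma cell UMIs; in the saline library these numbers were 36, 5 and 2. A doublet caller (Scrublet) marked 11 CDS and 24 saline members. Insulin RNA was found in the members at a median of 1.73% of UMIs in CDS and 2.12% in saline.

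Islets are supplied by a dense bed of capillaries whose endothelium is thin and pierced by fenestrae closed by diaphragms, of which the Plvap protein is the building block. Beta cells make vascular endothelial growth factor A (VEGF-A), which acts on the endothelial receptors encoded by Kdr and Flt1 and keeps this capillary bed open and permeable. The endothelial cells in turn lay down the basement membrane of the islet, since beta cells make little of it themselves.

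The members carried the wider endothelial programme beyond the genes that chose them. Of 32 pan-endothelial genes that the rule did not use, 30 were measured, which here means at least 100 UMIs over both libraries and at least 1 in each, and all 30 of these were at least 4-fold higher in members than in the other kept barcodes of both libraries. Of all 7008 genes with that many UMIs, 14.5% were. The list summed to 11533 CPM (UMIs per 1000000 UMIs of the same cells) in CDS members against 70.3 CPM in the other CDS barcodes, and to 10364 CPM in saline members against 114 CPM in the other saline barcodes. Per cell the list held a median of 119.9 UMIs per 10000 in CDS members and 115 in saline members, with a range of 10.0 to 262 in CDS and 0 to 277 in saline. At the edge of the rule, 6 CDS members with 5 or 6 marker UMIs had a median of 85.8 and 3 CDS barcodes with 4 marker UMIs had 90.01. In the saline library 14 members with 5 or 6 marker UMIs had 37.2, and 26 barcodes with 4 marker UMIs had 6.05.

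Among genes with at least 50 CPM in both libraries, the 15 that stood furthest above the other barcodes were Flt1, Nid2, Sox17, Gpihbp1, Igfbp3, Adgrl4, Myct1, Cdh5, Kcne3, Flt4, Ackr2, Robo4, Kdr, Sox7 and Esm1. Of these, Flt1, Cdh5 and Kdr are genes of the rule, so their height above the other barcodes follows from the choice of members. Flt1, for which this holds, was 524-fold higher in CDS members and 453-fold higher in saline members than in the other barcodes. Gpihbp1, which holds lipoprotein lipase on the capillary wall, was 463-fold higher in CDS and 382-fold higher in saline. Nid2, a basement membrane protein, was 478-fold higher in CDS and 442-fold higher in saline. Sox17, a transcription factor of endothelium, was 616-fold higher in CDS and 385-fold higher in saline.

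**Figure D1:**
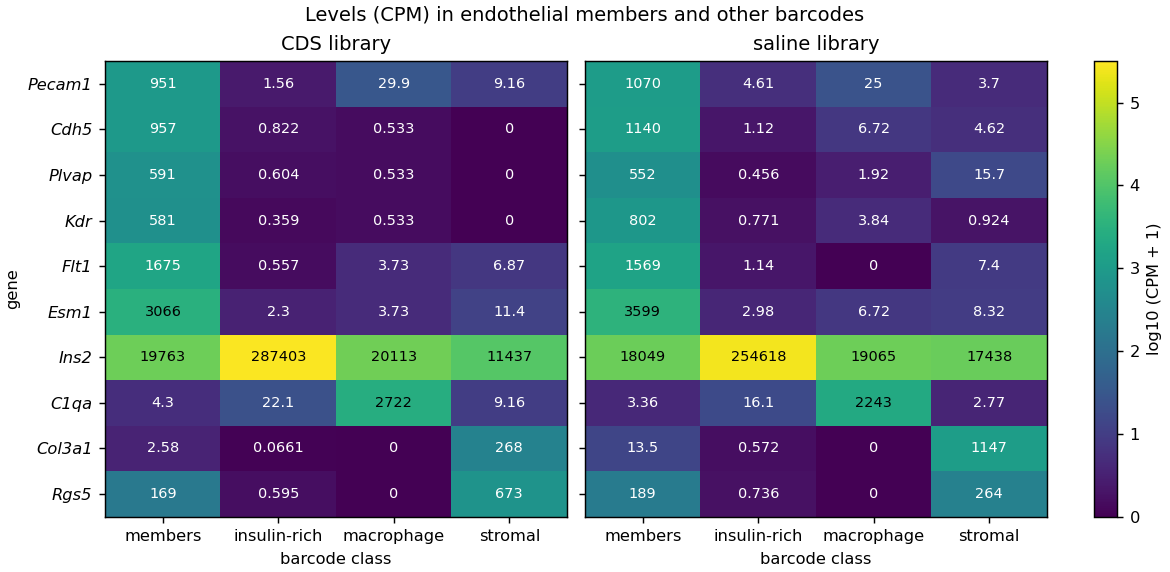
Levels (CPM without a scaling factor, printed in each cell and coloured on a log10 scale) of endothelial, beta (Ins2), macrophage (C1qa), fibroblast (Col3a1) and pericyte (Rgs5) genes, in columns for endothelial members, insulin-rich, macrophage and stromal barcodes, CDS library left and saline library right. Insulin-rich barcodes had at least 20% of UMIs from Ins1 and Ins2. Below that share, macrophage barcodes held at least 5 UMIs of C1qa, C1qb and C1qc. Stromal barcodes held at least 5 UMIs of Col1a1, Col1a2, Col3a1, Pdgfrb and Rgs5. All held under 5 UMIs of the rule genes, so contrasts of every gene shown except Esm1 follow from the choice of barcodes. Esm1 was at 3066 CPM in CDS members and 3599 CPM in saline members, and between 2.30 and 11.4 CPM in the other 3 classes of both libraries.

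Esm1, a gene the rule did not use, had close levels in the 2 libraries. Here and below, levels of members are CPM of their summed UMIs scaled with trimmed-mean (TMM) factors, and a ratio is CDS over saline. Esm1, a secreted proteoglycan typical of VEGF-exposed tip and islet capillaries (chr13:113209659-113218098, plus strand, mm10), was at 3217 CPM in CDS and 3430.0 CPM in saline, a ratio of 0.938 (0.909 to 0.968). After thinning to 2000 UMIs, which left out members below that depth, Esm1 was found in 83.9% of 242 CDS and 84.5% of 348 saline members. The 5 genes of the rule were not free to vary, since they chose the cells. Their ratios were 0.979 for Pecam1, 0.924 for Cdh5, 1.18 for Plvap, 0.797 for Kdr and 1.18 for Flt1. Kdr, the main VEGF-A receptor, was at 609 CPM in CDS and 764 CPM in saline, and Flt1, its decoy-like partner receptor, at 1757 CPM in CDS and 1495 CPM in saline. Plvap was at 619.8 CPM in CDS and 526 CPM in saline.

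A gene is called past the fold below when its ratio was at least 1.5 or at most 1/1.5. Of 7007 genes measured in members, 628 (8.96%) were past the fold on the higher side and 495 (7.06%) on the lower side. This split rests on the scaling, since plain CPM gave 335 higher and 830 lower and moved the median log2 ratio of all genes to -0.08 from 0.06. The ratio also ran with gene length. The 1402 shortest genes, with a median length of 4.96 kb, had a median log2 ratio of 0.40, and the 1402 longest, with a median of 149 kb, had -0.33. With a running median over gene length subtracted, 337 genes were higher and 253 lower, which is 4.81% and 3.61% of genes and 8.42% together. Counts of list members are read against these backgrounds, and the part of depth and gene length in any list was not tested beyond the length-adjusted values given.

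Genes of the pan-endothelial list stayed near the level of all genes, with 2 of 30 past the fold on the higher side, 1 on the lower side and a median log2 ratio of 0.13. Sox17 was at 168 CPM in CDS and 90.9 CPM in saline, a ratio of 1.85 (1.57 to 2.19). Ramp2, the partner that turns the receptor Calcrl into an adrenomedullin receptor, was at 189 CPM in CDS and 121 CPM in saline, a ratio of 1.55 (1.34 to 1.81). Cyyr1 was the gene on the lower side, at 246 CPM in CDS and 388 CPM in saline, a ratio of 0.633 (0.569 to 0.703). The most abundant of the list lay inside the fold, with ratios of 0.920 for Emcn, the sialomucin endomucin, 1.45 for S1pr1, the sphingosine-1-phosphate receptor, and 1.39 for Egfl7.

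Genes of fenestrated and tip capillaries leaned to the higher side, with 5 of 19 past the fold there, none on the lower side and a median log2 ratio of 0.30; with length adjustment 2 were higher and the median was 0.15. The 5 were Pgf, Adm, Kcne3, Plaur and Cxcr4. Pgf, placental growth factor, a VEGF family ligand of Flt1, was at 2053 CPM in CDS and 1233 CPM in saline, a ratio of 1.67 (1.59 to 1.74). Pgf was found in 70.7% of CDS and 54.0% of saline members after thinning, and its log2 ratio with length adjusted was 0.54, inside the fold. Adm, the vasodilator peptide adrenomedullin, was at 332 CPM in CDS and 157 CPM in saline, a ratio of 2.12 (1.87 to 2.40). Kcne3, a potassium channel subunit of tip cells, was at 437 CPM in CDS and 244 CPM in saline, and Plaur, the urokinase receptor, at 558 CPM in CDS and 324 CPM in saline. Not every gene of the list leaned this way. Angpt2, the ligand that loosens Tie2 signalling, was at 565 CPM in CDS and 785 CPM in saline, a ratio of 0.720 (0.670 to 0.774), and Apln had a ratio of 0.891.

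Among the 11 measured VEGF and angiopoietin ligands and receptors, Pgf was the single gene past the fold and the median log2 ratio was -0.10. The 11 include Flt1 and Kdr, which chose the members and were not free to vary. Vegfa was at 85.8 CPM in CDS and 67.3 CPM in saline, a ratio of 1.27 (1.03 to 1.58). Without a scaling factor, members held 81.7 CPM of Vegfa in CDS and 70.6 CPM in saline. Insulin-rich barcodes held 91.5 CPM in CDS and 95.2 CPM in saline. Tie1 and Tek, the receptors of the angiopoietins, were both inside the fold. The 12 Notch genes held 1 past the fold, Dll1, with a ratio of 1.54 (1.10 to 2.18). Dll4, the Notch ligand of tip cells, was at 275 CPM in CDS and 188 CPM in saline, and Hes1, a Notch target, at 247 CPM in CDS and 173 CPM in saline, both inside the fold.

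Lipid handling genes of capillaries held 3 of 10 measured on the higher side and 1 on the lower side, with a median log2 ratio of -0.10. Fabp4, the endothelial fatty acid binding protein, was at 3413 CPM in CDS and 1950.1 CPM in saline, a ratio of 1.75 (1.69 to 1.81). Fabp4 was found in 85.5% of CDS and 78.4% of saline members after thinning. Rgcc, a regulator of endothelial cell cycle and growth, was at 1505 CPM in CDS and 904 CPM in saline, a ratio of 1.66 (1.58 to 1.76). Gpihbp1 was at 123 CPM in CDS and 78.1 CPM in saline, a ratio of 1.58 (1.31 to 1.91). Car4, a carbonic anhydrase of capillaries, was the gene on the lower side, at 20.8 CPM in CDS and 32.8 CPM in saline. With gene length adjusted, the log2 ratios of Fabp4 and Rgcc were 0.47 and 0.55, inside the fold.

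**Figure D2:**
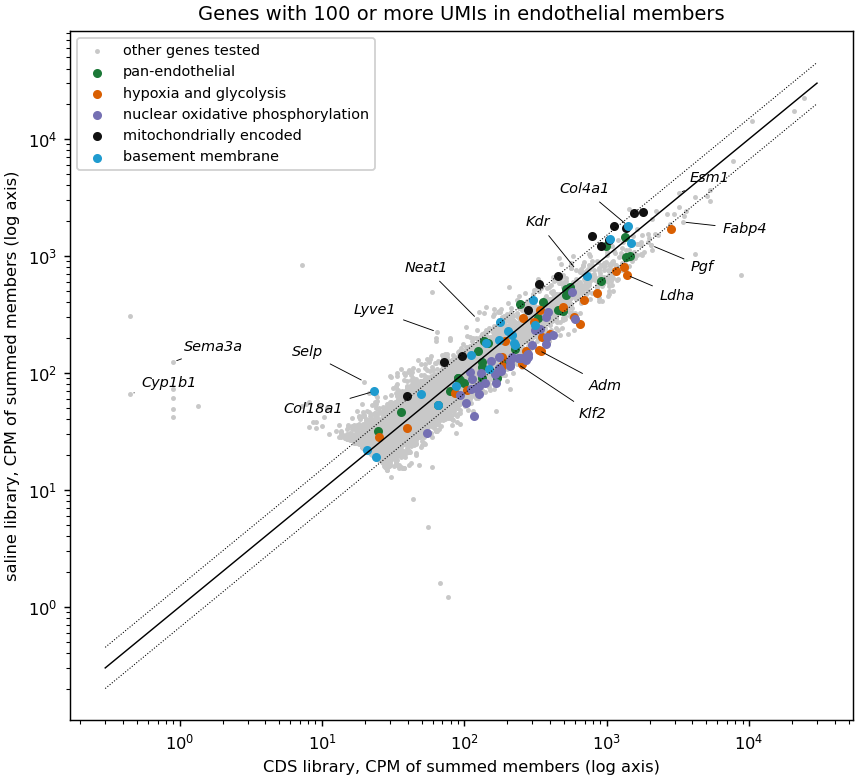
Level of each of 7007 genes in summed endothelial members, CDS library on the horizontal and saline library on the vertical log axis (CPM), with equality (solid line), the 1.5-fold limits (dotted lines) and 5 gene lists in colour. Nuclear oxidative phosphorylation genes and most hypoxia and glycolysis genes (not Hif1a, Epas1 or Egln3) lie below the line of equality (higher in CDS), mitochondrially encoded genes above it, and Sema3a and Cyp1b1 were nearly absent from CDS members.

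The hypoxia and glycolysis list, made of genes that low oxygen induces and of the enzymes that break down glucose, leaned to the higher side with and without length adjustment. Of 25 measured, 15 were past the fold on the higher side and none on the lower side, with a median log2 ratio of 0.70; with length adjusted 12 were higher and the median was 0.58. Ldha, which turns pyruvate to lactate, was at 1386 CPM in CDS and 687 CPM in saline, a ratio of 2.02 (1.90 to 2.14). Slc16a3, the lactate exporter MCT4, was at 344 CPM in CDS and 154 CPM in saline, a ratio of 2.23 (1.97 to 2.52). Slc2a1, the glucose transporter GLUT1 of endothelium, was at 400.4 CPM in CDS and 215 CPM in saline, a ratio of 1.86 (1.67 to 2.08). Glycolytic enzymes were also higher, with Tpi1 at 649 CPM in CDS and 262 CPM in saline, Gapdh at 2841 CPM in CDS and 1714 CPM in saline, and Aldoa at 1330.4 CPM in CDS and 804 CPM in saline. Bnip3, a mitophagy receptor induced by low oxygen, was at 256 CPM in CDS and 119 CPM in saline, a ratio of 2.16 (1.87 to 2.49). The oxygen-regulated transcription factors themselves were inside the fold, with ratios of 0.879 for Hif1a and 0.969 for Epas1, as was Vegfa. Gapdh and other glycolytic genes have many processed pseudogenes, and the counting could split their reads.

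Single cells of the libraries overlapped widely. Per 2000 UMIs of a cell, the hypoxia and glycolysis list held a median of 20.5 UMIs in CDS members and 12 in saline members. The lower quartile was 11 in CDS and 7.75 in saline, and the upper quartile 43 in CDS and 24 in saline. The full range was 2 to 133 in CDS and 2 to 92 in saline. In other barcodes the same list had a median log2 ratio of 0.77 in insulin-rich, 0.21 in macrophage and 0.27 in stromal barcodes, and the differences between classes were not tested.

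The promoters of 3 of these genes are shown because the genes were past the fold together and each window holds the core of the hypoxia response element, the letters ACGTG, on either strand. The sequences are the 250 bases before the first transcript start listed by RefSeq (GRCm38.p6), 5′ to 3′ along the gene, with matches in capitals, where neighbouring capitals merge overlapping matches of both strands.
Ldha: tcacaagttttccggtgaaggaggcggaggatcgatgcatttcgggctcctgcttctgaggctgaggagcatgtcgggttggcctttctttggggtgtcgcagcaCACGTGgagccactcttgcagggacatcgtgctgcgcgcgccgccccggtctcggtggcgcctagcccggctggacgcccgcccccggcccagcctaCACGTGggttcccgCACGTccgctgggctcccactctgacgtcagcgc
Slc16a3: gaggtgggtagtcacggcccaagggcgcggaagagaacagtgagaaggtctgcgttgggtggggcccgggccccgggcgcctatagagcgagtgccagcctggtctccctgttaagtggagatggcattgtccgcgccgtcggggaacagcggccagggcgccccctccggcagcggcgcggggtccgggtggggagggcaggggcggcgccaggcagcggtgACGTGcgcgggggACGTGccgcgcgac
Bnip3: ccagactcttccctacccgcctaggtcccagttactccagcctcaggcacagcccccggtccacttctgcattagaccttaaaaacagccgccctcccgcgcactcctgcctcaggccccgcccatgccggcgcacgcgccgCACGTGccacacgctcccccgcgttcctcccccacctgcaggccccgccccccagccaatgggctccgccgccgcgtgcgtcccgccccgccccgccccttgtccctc
The Ldha window lies at chr7:46845554-46845803 on the plus strand and holds 5 matches, the Slc16a3 window at chr11:120948817-120949066 on the plus strand holds 2, and the Bnip3 window at chr7:138909507-138909756 on the minus strand holds 2. Of the 27 listed genes, 25 had a promoter in the table and 12 of them (48.0%) held ACGTG. Of all 27025 promoters of that length 16.6% held it, and of the 5620 promoters of genes measured in members 23.04% did. A match describes the letters and is not evidence of binding.

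Nuclear genes of oxidative phosphorylation were higher, and mitochondrially encoded genes lower, in CDS members. Of 40 nuclear genes, 28 were past the fold on the higher side and none on the lower side, with a median log2 ratio of 0.77; these genes are short, and length adjustment left 10 higher and a median of 0.44. Cox8a, a subunit of cytochrome c oxidase, was at 598 CPM in CDS and 290.04 CPM in saline, a ratio of 2.06 (1.88 to 2.26). Ndufb2, a complex I subunit, was at 116 CPM in CDS and 42.5 CPM in saline, a ratio of 2.73 (2.17 to 3.46). Of 13 mitochondrially encoded genes, 6 were past the fold on the lower side and none on the higher side, with a median log2 ratio of -0.56. With length adjusted all 13 were lower and the median was -0.99. The adjustment subtracts a running median taken mostly from nuclear genes of like length. The further calls follow from that shift and add no separate evidence. mt-Nd2 was at 784 CPM in CDS and 1475 CPM in saline, a ratio of 0.532 (0.502 to 0.563). mt-Co1 was at 1801 CPM in CDS and 2397 CPM in saline. Other classes had the same signs: insulin-rich, macrophage and stromal barcodes, in this order, had medians of 1.198, 0.76 and 0.48 for the nuclear list and of -0.42, -0.31 and -0.87 for the encoded list.

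Immediate early genes, which respond within minutes to stimuli and to tissue handling, held 10 of 20 on the higher side and 1 on the lower side, with a median log2 ratio of 0.58. Length adjustment left 4 higher and 1 lower with a median of 0.18. Ier3 was at 2073 CPM in CDS and 1114 CPM in saline, a ratio of 1.86 (1.78 to 1.95). Atf3, a stress-induced transcription factor, was at 220 CPM in CDS and 98.9 CPM in saline, a ratio of 2.22 (1.90 to 2.60), and Cebpd at 429 CPM in CDS and 206 CPM in saline. Fos and Egr1 were inside the fold, with ratios of 1.12 and 1.14, and Fosb was the gene on the lower side at 0.628. Gadd45b had a ratio of 2.14, but 3 cells in each library held 50% of its UMIs, and its log2 ratio was -0.22 without the members that carried RNA of a second cell type. Insulin-rich, macrophage and stromal barcodes, in this order, had list medians of 0.65, 0.57 and 0.31. None of 10 measured heat shock genes was past the fold.

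**Figure D3:**
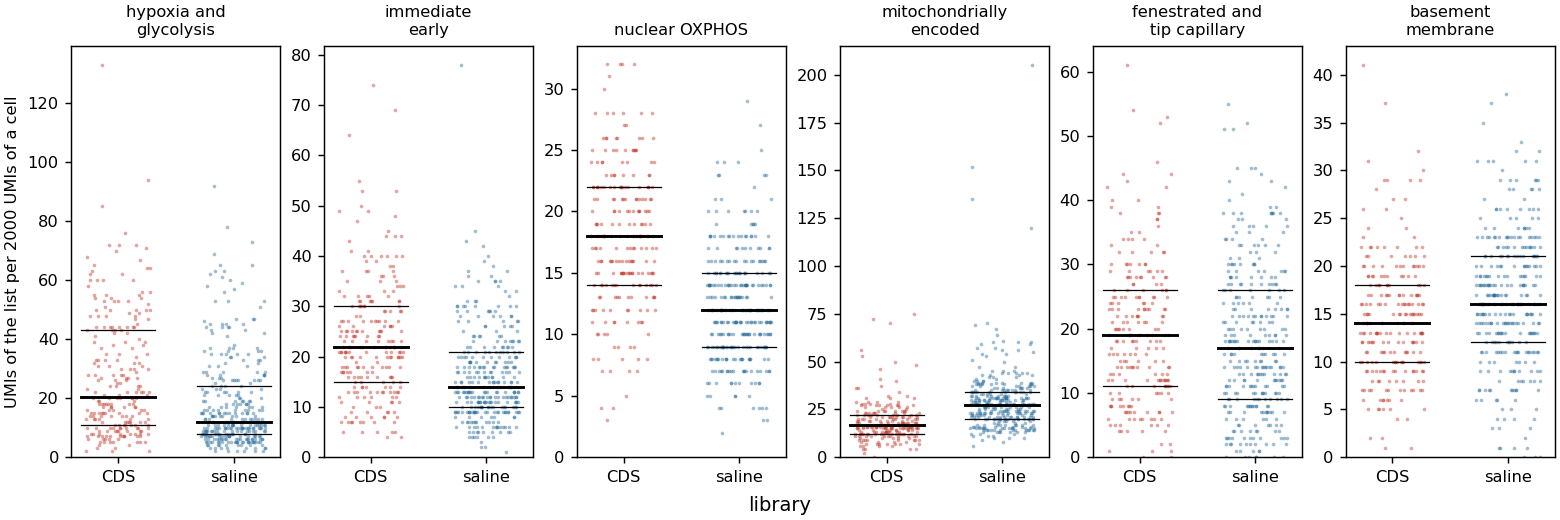
UMIs of 6 gene lists per 2000 UMIs of each member (points; 242 CDS members left and 348 saline members right in each panel), with the median (thick line) and quartiles (thin lines). Medians were 20.5 in CDS and 12 in saline for hypoxia and glycolysis, and 14 in CDS and 16 in saline for basement membrane genes, with wide overlap of cells in every panel.

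Flow and vascular tone genes held 3 of 17 on the higher side and 2 on the lower side, with a median log2 ratio of -0.08. Klf2, the transcription factor that laminar flow induces in endothelium, was at 236 CPM in CDS and 119 CPM in saline, a ratio of 1.97 (1.71 to 2.28). The others on the higher side were Adm and Ramp2, a ligand and a receptor component of 1 pathway. Nos3, the endothelial nitric oxide synthase, had a ratio of 1.07 (0.877 to 1.29), Edn1, endothelin 1, of 1.10 (1.01 to 1.19), and Ednrb, the endothelin B receptor, of 0.943 (0.884 to 1.01). Ptgs1 and Cyp1b1 were on the lower side. With length adjusted, Klf2 had a log2 ratio of 0.58, just inside the fold.

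In the BMP and TGF-beta pathway, target genes were higher and a receptor lower. Id3 was at 1099 CPM in CDS and 648 CPM in saline, a ratio of 1.70 (1.59 to 1.81), and Id1 at 449 CPM in CDS and 275 CPM in saline, a ratio of 1.63 (1.48 to 1.80). Tgfbr1, a TGF-beta receptor kinase, was at 73.6 CPM in CDS and 122 CPM in saline, a ratio of 0.602 (0.495 to 0.731). In all, 3 of 15 genes were higher and 1 lower, none of them with length adjusted. Eng and Bmpr2, receptors of BMP9 and other BMPs, had ratios of 1.02 and 0.836.

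Basement membrane genes held none of 21 on the higher side and 2 on the lower side, with a median log2 ratio of -0.09. Col4a1 and Col4a2, the chains of the collagen IV network, lay lower inside the fold. Col4a1 was at 1402 CPM in CDS and 1818 CPM in saline, a ratio of 0.771 (0.736 to 0.807), and Col4a2 at 1060.4 CPM in CDS and 1394 CPM in saline, a ratio of 0.761 (0.722 to 0.802). Both genes are long, and with length adjusted their log2 ratios were -0.07 and -0.03. The 2 past the fold were Col18a1, source of endostatin, at 23.02 CPM in CDS and 69.3 CPM in saline, and Lamc1, a laminin chain, at 178 CPM in CDS and 270 CPM in saline. Col18a1 had 50% of its UMIs in 9 CDS and 11 saline cells. Stromal barcodes held more of it, 147 CPM in CDS and 163 CPM in saline without a scaling factor, and the part of stromal RNA was not tested. Sparc, a collagen-binding matrix protein, had a ratio of 1.15.

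The lists named next had at most 3 genes past the fold on either side. Clotting and fibrinolysis genes held 2 of 12 higher and 2 lower, with Plau, urokinase, at 24.8 CPM in CDS and 49.3 CPM in saline while its receptor Plaur was higher. Leukocyte adhesion and chemokine genes held 3 of 13 higher and 2 lower. Cxcl1 had a ratio of 1.78, but 3 cells in each library held 50% of its UMIs. Junction genes, with the rule gene Cdh5 among them, held 1 of 15, Pard3, on the lower side. Growth factor and guidance signals held 1 of 15 on each side, Sema3f higher and Slit3 lower. Thbs1, thrombospondin 1, was at 2206 CPM in CDS and 2436 CPM in saline. Interferon and MHC class I genes held 3 of 28 higher and 1 lower, with H2-D1 at 1021 CPM in CDS and 599 CPM in saline. With length adjusted the balance turned, with 0 higher and 4 lower and a median log2 ratio of -0.16, and H2-D1 was at 0.43, inside the fold. Insulin, IGF and glucose transport genes held 1 of 13 higher, Slc2a1, and 2 lower, among them Foxo3.

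The members held almost no adrenergic receptor RNA. Adra2a had 1 UMI in CDS members and 12 in saline members, a ratio of 0.0939 (0.00220 to 0.635). Adra1a had 4 UMIs in CDS and 1 in saline, and Adrb1 had 6 in CDS and 7 in saline. Adra1b, Adra1d, Adra2b, Adra2c and Adrb3 had none in either library. The interval for Adra2a lies below 1 and covers counting error between these 2 libraries only; its 12 saline UMIs came from 9 cells, and for the other receptors the counts were too few to show a difference. Of the 15 measured genes of the adrenergic and Gi signalling list, which are G protein subunits, adenylyl cyclases, phosphodiesterases and regulators, Gng11, a G protein gamma subunit, was the single gene past the fold, at 1034 CPM in CDS and 661 CPM in saline. With length adjusted, the log2 ratio of Gng11 was 0.31, inside the fold, and that of the phosphodiesterase gene Pde4b was 0.72, past it.

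**Figure D4:**
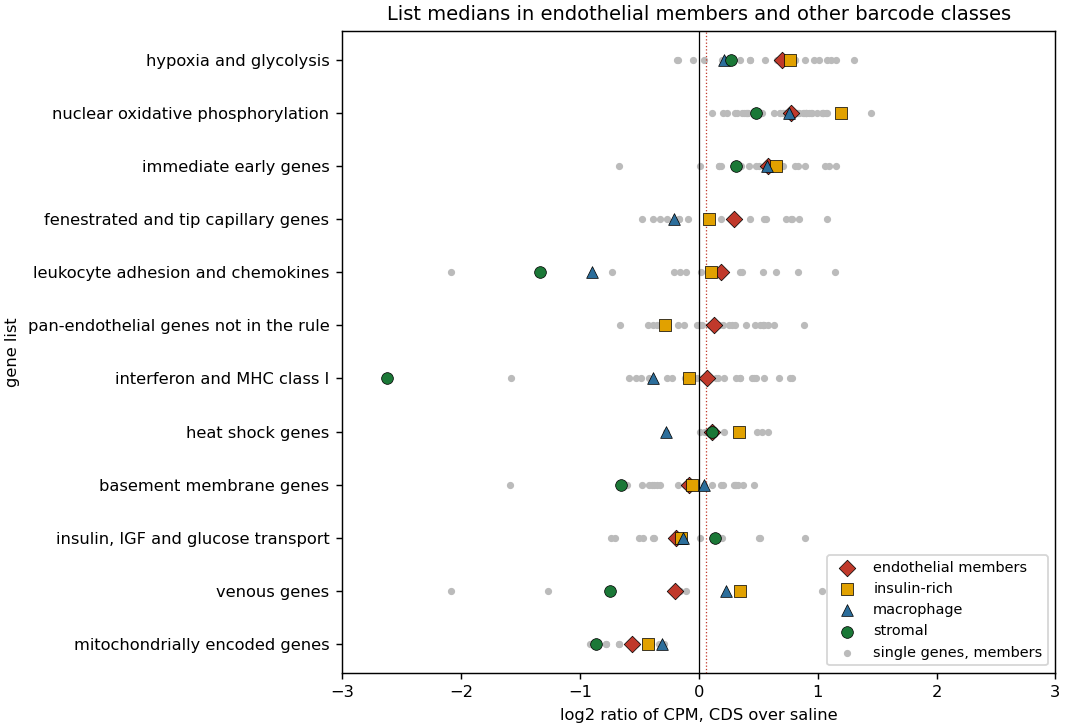
Median log2 ratio (CDS over saline) of 12 gene lists in endothelial members (red diamonds) and in insulin-rich, macrophage and stromal barcodes (shown where at least 5 genes were measured), with single genes of the members in grey and the median of all genes in members as a dotted line. Medians in members run from 0.77 for nuclear oxidative phosphorylation to -0.56 for mitochondrially encoded genes.

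By the naming rule, the 10 highest and 10 lowest ratios among well-covered genes were read next, and several rest on single cells. Among the highest, Fgb and Cxcl3 each had 50% of their CDS UMIs in 1 cell. A further 7 were spread over at least 16 cells for that share. Ankrd37, a gene induced by low oxygen, was at 209 CPM in CDS and 72.1 CPM in saline, a ratio of 2.90 (2.44 to 3.47). Higd1a, a mitochondrial protein induced by low oxygen, was at 592 CPM in CDS and 233 CPM in saline, a ratio of 2.54 (2.31 to 2.81). The others were Rassf4, Ndufb2, Ptprr, 2410006H16Rik and Tpi1. Of the lowest, Igkc and Cd52 had 50% of their saline UMIs in 1 cell, Selp in 2, and Cyp1b1, Sema3a, Cd55, Ifi27l2a, Thsd7a and Lyve1 in 4 or 5 cells. Gm11867 was the exception, with 50% of its saline UMIs in 34 cells, at 8.13 CPM in CDS and 56.5 CPM in saline. The difference was not particular to members. Without a scaling factor, Gm11867 was at 3.67 CPM in CDS and 37.0 CPM in saline insulin-rich barcodes. Macrophage barcodes held 3.20 CPM in CDS and 48.0 CPM in saline, and stromal barcodes 6.87 CPM in CDS and 49.9 CPM in saline.

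Several genes with the lowest ratios were concentrated in a small set of saline members. Sema3a, a secreted guidance protein, reached at least 3 UMIs in 0 of 251 CDS members and in 16 of 360 saline members; this gene was picked after its values were seen. The 16 cells had a median of 5333 UMIs and still carried endothelial RNA, with 658 CPM of Pecam1, 658 CPM of Cdh5 and 8727 CPM of the pan-endothelial list, against 10968 CPM of that list in the other saline members. They held little Esm1, 269 CPM against 3745 CPM in the other saline members, and less Flt1, 249.4 CPM against 1627 CPM. Lyve1, a hyaluronan receptor of lymphatic vessels, was at 4618 CPM against 42.6 CPM in the other saline members. Further lymphatic genes were present at lower counts, with Prox1 at 219 CPM against 24.6 CPM, Mmrn1 at 79.8 CPM against 0.878 CPM and Pdpn at 140 CPM against 0.878 CPM. Cd55 and Cyp1b1 were at 1785 and 1426 CPM. The same cells held 24706 CPM of acinar markers against 1012 CPM in the other saline members, and the part of exocrine RNA in their levels was not tested. Over all members, Lyve1 had 142 UMIs in CDS and 560 in saline, a ratio of 0.286 (0.236 to 0.344), and its log2 ratio was 0.41 without the clusters of mixed RNA, doublet calls or 1 library described next.

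The Glycam1- or Madcam1-positive cells were 0.791% of CDS members (2 of 253, Clopper-Pearson interval 0.0959 to 2.83%) and 2.96% of saline members (11 of 371, 1.49 to 5.24%). With at least 3 UMIs of the pair, there were 0 of 253 in CDS, which allows a share of up to 1.19% by the limit of 3 counts (1.45% by Clopper-Pearson), and 8 in saline. Outside the members, 6 of 6162 CDS barcodes (0.0974%) and 33 of 11220 saline barcodes (0.294%) held a UMI of either gene. Glycam1 reached 86 UMIs in 1 saline cell and was absent from both CDS cells, which held 2 and 1 UMIs of Madcam1. The saline cells were venular in their RNA. Ackr1, the chemokine receptor of postcapillary venules, was at 321 CPM against 7.99 CPM in the other saline members, Lrg1 at 928 CPM against 43.7 CPM, and Selp, P-selectin, at 443 CPM against 88.3 CPM. Among the genes furthest above the other saline members, chosen after their values were seen, were Cxcl9 (in 6 of the 11 cells) at 464 CPM against 30.3 CPM, Ubd at 600.2 CPM against 29.8 CPM and Iigp1 at 1541 CPM against 113 CPM. The adhesion gene Icam1 had 7 UMIs in 3 of the 11 cells, 47.7 CPM against 82.4 CPM. Vcam1 had 2 UMIs in 2 cells, 13.6 CPM against 16.8 CPM, and for both genes the counts were too few to show a difference. Esm1 had 1 UMI over the 11 cells, 6.82 CPM against 3599 CPM in the other saline members, while Plvap was at 702 CPM against 552 CPM. Both CDS cells likewise had no Esm1 and 19 UMIs of Plvap each. The venular genes were found in these 2 cells too, with 31 and 34 UMIs of Lrg1, 12 and 62 of Selp, and 1 and 23 of Ackr1.

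Unsupervised clustering of the 611 members, described here without tests because the same genes defined the clusters, gave 10 groups at the resolution used, 7 at a lower and 12 at a higher one, a range chosen after seeing the data. Clusters are called by their leading genes. Cluster 1 (96 cells) was led by Mmd, Camkk2, Plau and Cxcr4, and cluster 5 (71 cells) by Hmga2, Tfpi2 and Edn1. Cluster 2 (87 cells) combined interferon-stimulated genes, Rsad2 and Isg15, with the endoplasmic reticulum chaperone gene Hspa5. Cluster 3 (80 cells) was led by Gm45716, Adm and Depp1. Clusters 2 and 3 held 21892 and 21975 CPM of the hypoxia and glycolysis list, against 5390 to 9667 CPM in the other 8. Cluster 2 held 54 CDS and 33 saline members and cluster 3 held 43 CDS and 37 saline members. In all there were 251 CDS and 360 saline members, so both libraries were in both clusters, at unequal shares. The part of these shares in the hypoxia and glycolysis values over all members was not tested. Cluster 7 (60 cells) was led by Nr1d1, Gdf15, Csf1, Cxcl1 and Icam1. Cluster 6 (66 cells) was led by the acinar genes Try5 and Prss2 with Nupr1 and Cyp1a1. Cluster 4 (73 cells, 48 of them with RNA of a second cell type) was led by Ctnna3 and held Mgp, Igfbp5 and the contractile cell gene Des. Cluster 8 (28 cells, 19 of them called doublets) was led by Kcnd2, Fgf14 and the hormone gene Ppy. Cluster 9 (26 cells, 25 of them saline) held 14 of the 16 Sema3a-positive cells, had 6 doublet calls and carried immune RNA, with 798 CPM of T and NK markers, 904 CPM of macrophage markers and 1353 CPM of MHC class II genes. Cluster 10 (24 cells) was led by Ackr1, Selp and Aplnr, with 4264 CPM of the venous list.

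Within clusters 2, 3, 5 and 6, which had at least 25 members from each library, the hypoxia and glycolysis list had median log2 ratios of 0.01, 0.12, 0.15 and 0.10 above all genes of the cluster. Over all members the list's median was 0.70, not centred, where that of all genes was 0.06. The nuclear oxidative phosphorylation list kept medians of 0.68, 0.95, 0.58 and 0.42, and the immediate early list of 0.35, 0.39, 0.36 and 0.55. The mitochondrially encoded list had -1.17, -0.46, -0.84 and -0.73. The clusters were built on these genes among others, so these values describe and do not test.

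**Figure D5:**
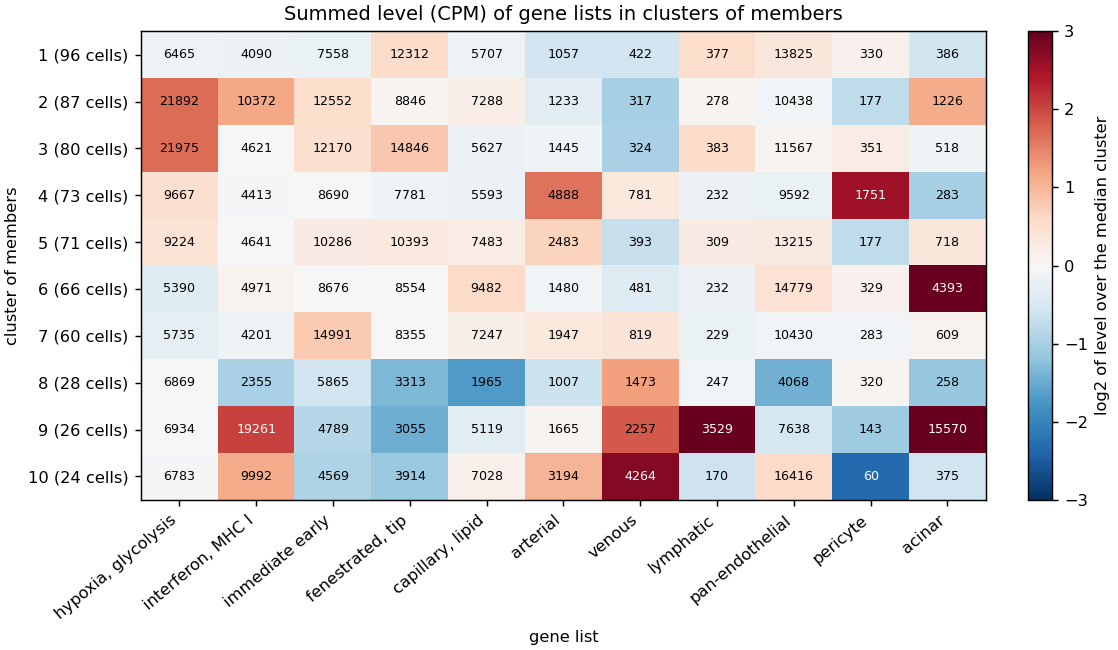
Summed level (CPM, printed) of 11 gene lists in 10 clusters of members, coloured by log2 of the level over the median cluster. The hypoxia and glycolysis list was highest in clusters 2 and 3, the lymphatic and acinar lists in cluster 9, the venous list in cluster 10 and the pericyte list in cluster 4.

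Shares of members with RNA of each vessel type list were broad. After thinning to 2000 UMIs, at least 2 UMIs of the fenestrated list were found in 97.9% of CDS and 96.6% of saline members and of the capillary list in 97.9% of CDS and 96.0% of saline members. The arterial list reached 68.6% of CDS and 65.5% of saline members. The lymphatic list reached 13.6% of CDS and 17.8% of saline members, and the venous list 26.4% of CDS and 36.8% of saline members. The venous list summed to 764.7 CPM in CDS members and 911.8 CPM in saline members, below its 1859 CPM in the other CDS barcodes and 2300 CPM in the other saline barcodes, and its most abundant genes Cpe and Il1r1 were lower in members than in those barcodes. The part of free RNA from other cells in these shares was not tested, and no difference is read from them. Nr2f2, the transcription factor of venous identity, was at 49.7 CPM in CDS and 119 CPM in saline, a ratio of 0.416 (0.331 to 0.519). It had 50% of its UMIs in 6 CDS and 14 saline cells. In stromal barcodes it was at 142 CPM in CDS and 218 CPM in saline, without a scaling factor, and the part of stromal RNA was not tested. Tmem252, another gene of the venous list, was higher, at 125 CPM in CDS and 60.9 CPM in saline.

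Members were 3.94% of kept barcodes in the CDS library (3.48 to 4.45%) and 3.20% in the saline library (2.89 to 3.54%). Barcodes with 2 or more UMIs of lymphoid genes numbered 154 in the CDS library and 2861 in the saline library. With these barcodes left out, members among them, the shares were 4.04% in CDS (3.57 to 4.56%) and 4.12% in saline (3.72 to 4.56%), and the intervals overlap, so the order of the libraries is not established. Islet dissociation and hand-picking also set such shares, and their part was not tested.

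RNA of other cell types in the summed members differed between the libraries. Ppy, the hormone of PP cells, was at 8792 CPM in CDS and 683 CPM in saline. Per cell, the list of alpha, delta and PP markers had close medians, 15.95 UMIs per 10000 in CDS members and 15.2 in saline members. Its highest member held 4651 UMIs per 10000 in CDS and 638 in saline. The part of such single cells in the summed Ppy level was not tested. Of 12 pericyte and smooth muscle markers, 11 were detected in CDS, with Acta2 at 0, and 12 in saline, summing to 504 CPM in CDS members and 526 CPM in saline members, against 11.5 CPM in the other CDS barcodes and 21.5 CPM in the other saline barcodes. Markers of B and plasma cells summed to 2.26 CPM in CDS and 407 CPM in saline members, with Ms4a1, Ighd and Mzb1 among those at 0 in CDS, and T and NK markers to 9.48 CPM in CDS and 57.3 CPM in saline. Their part in the results above was not tested beyond leaving out cells. Without clusters 4, 8 and 9, the remaining 215 CDS and 269 saline members gave 629 genes higher and 340 lower. These 3 clusters were picked for pericyte, hormone or plasma cell RNA, for doublet calls or for members mostly from 1 library. Acinar RNA was not part of that choice, and cluster 6, led by acinar genes, was kept.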

How the data were processed

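Droplet RNA libraries of islets, 1 from CDS-treated and 1 from saline-treated DIO mice, were read from UMI count matrices the authors deposited; per the file headers they were written by Cell Ranger 7.1.0. Cell Ranger 7.1, Seurat 4, edgeR and the mm10 build are listed in the submitters' processing notes; the labels' protocols name both v2 and v3.1 of the 3′ chemistry. The libraries held 141191447 UMIs (CDS) and 124343325 UMIs (saline) over 7268 and 12453 barcodes. Every count column was used.

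Members were found by the rule given at the opening of the report, and the members and gene lists were chosen with earlier results of these data known. UMIs were summed over members of a library (2324230 in CDS, 2379061 in saline) and scaled to CPM with edgeR 4.0.16 TMM factors (0.953 in CDS, 1.05 in saline). The ratio of CDS to saline has an exact conditional interval and shares have Clopper-Pearson intervals, at 95%; these cover counting error only. With 1 library per group no count test was run and no p-value is given, and cells were not treated as replicates. Genes were measured at 100 or more UMIs over both libraries and at least 1 in each, with a call at 1.5-fold. Per-cell shares used members thinned to 2000 UMIs (242 CDS, 348 saline; shallower members left out). Doublets called by Scrublet in Scanpy 1.11.5 were kept, and left out in an alternative. Other scripts used Python 3.11.15, NumPy 2.4.6, SciPy 1.17.1, matplotlib 3.10.9, R 4.3.3 and DESeq2 1.42.0 (size factors only). Gene lengths came from the mm10 annotation for 32235 of 32285 gene IDs, and promoters from RefSeq. The calculations were tested on simulated counts.

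Genes were named by rule: the 6 endothelial markers; the 10 highest and 10 lowest ratios at 50 CPM or more in 1 library, leaving out marker, mitochondrially encoded, ribosomal protein and sex-linked genes and genes under 10% of their level in another cell class; up to 3 of the most abundant and 3 of the most different genes per list; adrenergic receptors and addressins; and the 15 genes furthest above other barcodes. Further list genes are given as values, and a few genes that the rule names are not reported here. Alternatives changed the scaling, barcode filters, marker and insulin limits, doublets, depth, gene length, minimum count and fold. Leaving out members with RNA of a second cell type or whole clusters, and other cluster resolutions, were chosen after seeing the data.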

Additional observations from a re-analysis of the deposited data

Results flagged for a closer look

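The acinar marker list had opposite signs between cell classes of the same libraries. Its median log2 ratio of CDS over saline was -0.92 in endothelial members, 0.96 in insulin-rich barcodes and 0.94 in macrophage barcodes, and it was -1.26 in stromal barcodes. The difference between classes was not tested. In members, 14 of 15 acinar markers were detected in CDS and 13 in saline, with a sum of 899.7 CPM in CDS and 1916 CPM in saline. A few saline cells held much of this RNA: in CPM without a scaling factor, acinar markers summed to 857 CPM in CDS members, and in the saline library to 24706 CPM in the 16 members with 3 or more Sema3a UMIs and 1012 CPM in the others. Per cell, the list had a median of 5.04 UMIs per 10000 in CDS members and 2.35 in saline members, a direction opposite to that of the median ratio. The highest member held 2019 UMIs of the list per 10000 in saline and 316 in CDS. After thinning, the highest saline member held 423 acinar UMIs, where the mean over 348 saline members was 2.34. In CDS the highest was 71 and the mean 2.18. The part of the highest saline member in the median ratio was not tested.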

How the results depend on the processing

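No paired analysis was possible because each group has 1 library. The count of genes past the fold (628 higher, 495 lower) was 335 higher and 830 lower with plain CPM, 347 and 800 without hormone, acinar and mitochondrially encoded genes in the denominator, 296 and 204 thinned to 2000 UMIs, 337 and 253 with gene length corrected, 355 and 179 at 300 or more UMIs, 1802 and 1296 at the looser fold limit, 76 and 115 at the stricter one, and 2233 and 2689 with no minimum. The cause was not tested where the genes tested stayed the same. The saline member share was 3.71% at 3 marker UMIs, 4.12% without lymphoid barcodes, 3.69% with the strict filter and 2.69% thinned to 5000 UMIs. At 3 UMIs of Glycam1 and Madcam1 the CDS share of positive cells was 0. Vessel type shares followed depth and threshold. At full depth they were, in CDS and saline, 92.4% and 87.2% (arterial), 64.9% and 70.0% (venous), 49.4% and 52.2% (lymphatic), 74.1% and 65.6% (addressin) and 100% and 98.6% (fenestrated), and the saline capillary share was 98.6%. At 3 UMIs they were 47.5% and 53.2% (arterial), 15.3% and 21.3% (venous), 3.31% and 7.76% (lymphatic), 10.7% and 12.6% (addressin) and 93.8% and 92.8% (capillary), and the saline fenestrated share was 93.7%. Of the gene ratios (log2), Lyve1 turned to 0.41, Iigp1 to 0.23 and Fth1 to 0.13 without the clusters of mixed RNA, doublet calls or 1 library, Cxcl1 to -0.090 thinned and -0.66 without members of mixed RNA, and Gadd45b to -0.22 without those members; the cause was not tested. Of the other gene ratios over all settings, 1952 kept their side, 67 passed the fold anew and 86 no longer passed it. Depth limits the genes under 100 UMIs.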
